A study of Mus musculus with 4 samples.

Results

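The genes described here are 8 regulators of the dorsal telencephalon and of upper-layer cortical neurons, namely Cux1, Cux2, Pou3f2, Pou3f3, Lhx2, Emx1, Emx2 and Met. They were taken by symbol from the platform's probe annotation, which gave 9 probe sets, 1 for each gene and 2 for Pou3f2, out of 35557 probe sets and 19938 genes on the array. Membership was chosen by readout as well as by role: the set was put together with the difference between the ethanol and the PBS array of the hippocampus already known, so that difference is given below as a description and with no test. All 8 genes passed the filter on low values, a mean over the arrays at or above 7.11 on the log2 scale, as did 11013 genes in all.

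The study measured RNA of C57BL/6J mouse fetuses at embryonic day 18 on Affymetrix gene arrays. The 4 groups were hippocampus after maternal ethanol, hippocampus after maternal PBS (phosphate-buffered saline), forebrain after maternal ethanol and forebrain after maternal PBS, with 1 array in each group. The dams were given ethanol at a daily dose of 2.9 g/kg, in a solution of 15% by volume, or PBS, by the intragastric route for 5 days spanning embryonic days 8 to 12. With 1 array a group, a difference within a tissue has no replicate check, and litter and array cannot be told apart from treatment. The labels used here do not say how many embryos or litters went into an array.

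Emx1, Emx2 and Lhx2 encode homeodomain transcription factors of the dorsal pallium, the embryonic field that forms cortex and hippocampus. In mouse, loss of Lhx2 turns medial cortical tissue into cortical hem, and loss of Emx2 leaves a small hippocampus and dentate gyrus. Pou3f2 (Brn2) and Pou3f3 (Brn1) are POU-domain factors that act together in the production and migration of upper-layer neurons, while Cux1 and Cux2 are cut-homeodomain factors that mark those neurons and shape their dendrites and synapses. Met is the receptor tyrosine kinase for hepatocyte growth factor, present on axons of pallial projection neurons during synapse formation.

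Promoter sequence was available for all 8 genes, in 10 windows because Cux2 and Lhx2 have 2 starts each. The 250 bases before the start were searched on both strands for CCAAT (the CCAAT box, from which Cux1 takes its older name, CCAAT displacement protein), TAATTA (a core shared by LIM and Emx homeodomains), ATGCAAAT (the POU octamer) and ATCGAT (bound by cut homeodomains). None of these overlapped another in the windows of the 8 genes. CCAAT was found in 3 of the 10 windows, those of Pou3f2, Pou3f3 and Emx2, against 33.8% of all 32851 promoter windows of that length. Pou3f3 held 3 copies, starting 160, 103 and 84 bases before the start, a number reached by 2.79% of all windows. Pou3f2 held 2, starting 229 and 166 bases before the start, and Emx2 held 1, at 21 bases. ATCGAT was found once, 72 bases before the downstream start of Cux2, against 0.728% of all windows. TAATTA and ATGCAAAT were in none of the 10, against 4.84% and 1.6% of all windows. Median GC content was 67.8% in the 10 windows and 52.4% over all windows. These are matches of letters, and no binding was measured. The 3 windows with CCAAT (in capitals), from RefSeq on build GRCm38.p6 and written 5′ to 3′ on the strand of the gene, are shown because the paralogs Pou3f2 and Pou3f3 both hold the box. They lie at chr4:22488367-22488616 (minus strand), chr1:42695518-42695767 (plus strand) and chr19:59458440-59458689 (plus strand).
Pou3f2: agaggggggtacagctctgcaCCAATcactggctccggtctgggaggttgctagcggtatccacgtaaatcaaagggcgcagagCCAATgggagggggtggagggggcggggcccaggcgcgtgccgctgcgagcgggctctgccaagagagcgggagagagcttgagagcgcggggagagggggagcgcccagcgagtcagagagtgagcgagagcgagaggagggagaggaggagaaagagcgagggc
Pou3f3: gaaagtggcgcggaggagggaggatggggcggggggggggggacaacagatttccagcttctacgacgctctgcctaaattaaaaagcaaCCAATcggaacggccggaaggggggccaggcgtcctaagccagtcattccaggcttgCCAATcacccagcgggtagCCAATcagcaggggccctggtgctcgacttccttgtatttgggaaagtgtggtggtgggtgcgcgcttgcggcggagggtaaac
Emx2: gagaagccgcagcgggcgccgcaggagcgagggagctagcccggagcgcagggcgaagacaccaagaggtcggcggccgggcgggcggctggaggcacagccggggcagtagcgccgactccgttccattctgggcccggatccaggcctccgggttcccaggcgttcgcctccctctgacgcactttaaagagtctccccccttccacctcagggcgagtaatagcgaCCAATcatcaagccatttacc

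The arrays were close in scale, with medians over all probe sets of 7.11 to 7.13. Restricted to the 11013 kept genes, the median was 8.57 for hippocampus after ethanol, below the 8.66 to 8.68 of the remaining arrays. The median ethanol difference over these genes was -0.08 in hippocampus and -0.01 in forebrain. Genes of hippocampal fields, taken as a list, did not set the labelled hippocampus apart from forebrain. Their median tissue difference was -0.02 both after ethanol and after PBS. Single genes differed both ways, with 7 higher and 7 lower in hippocampus after PBS, from -0.58 to 0.48. Of the 14 kept, 0 passed limma's test between tissues, beside 1.13% of all kept genes, a share at which 0 of 14 says little. Values of different probe sets are not compared as levels, since each probe set has its own response.

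Among the dorsal pallial factors, Lhx2 read 9.55 in hippocampus after ethanol and 10.21 after PBS, and 9.88 in forebrain after ethanol and 9.94 after PBS. The hippocampus PBS array was the highest of the 4 and the hippocampus ethanol array the lowest, with both forebrain arrays between them. The difference in hippocampus was -0.67 on the log2 scale, 1.59-fold lower after ethanol, the 23rd lowest of 11013 genes, and it was -0.06 in forebrain.

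Emx1 read 7.64 in hippocampus after ethanol and 7.99 after PBS, against 7.75 in forebrain after ethanol and 7.79 after PBS. Emx2 read 7.55 in hippocampus after ethanol and 7.90 after PBS, against 7.55 in forebrain after ethanol and 7.57 after PBS. The paralogs thus had nearly equal hippocampus differences, -0.35 for Emx1 and -0.36 for Emx2, but the arrays lay differently around them: the hippocampus ethanol array lay 0.11 below all others for Emx1, and within the forebrain values for Emx2. Their forebrain differences were -0.05 and -0.02.

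Of the POU factors, Pou3f3 read 9.04 in hippocampus after ethanol and 9.41 after PBS, and 9.10 in forebrain after ethanol and 9.04 after PBS. The PBS hippocampus array stood 0.32 above the next, and the other 3 arrays lay together. Its hippocampus difference was -0.38 and its forebrain difference 0.06.

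Pou3f2 has 2 probe sets, and they disagreed in forebrain. The brighter one read 10.35 in hippocampus after ethanol and 10.59 after PBS, and 10.40 in forebrain after ethanol and 10.13 after PBS. The dimmer one read 9.49 in hippocampus after ethanol and 9.69 after PBS, and 9.44 in forebrain after ethanol and 9.49 after PBS. Both put the hippocampus PBS array highest, by 0.19, and both were lower after ethanol in hippocampus, by differences of -0.24 and -0.20. In forebrain the brighter probe set differed by 0.27, the 70th highest of 11013 genes, and the dimmer one by -0.05, so that the direction for Pou3f2 in forebrain depends on the probe set.

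Of the cut-homeodomain pair, Cux2 read 8.44 in hippocampus after ethanol and 9.0 after PBS, with 8.82 in each forebrain array. The hippocampus ethanol array lay 0.38 below both forebrain arrays and the hippocampus PBS array 0.18 above them, and the hippocampus difference of -0.56 (1.47-fold lower, 62nd lowest of 11013) fell just short of 1.5-fold. Cux1 was the flattest of the 8. It read 9.04 in hippocampus after ethanol and 9.16 after PBS, and 9.06 in forebrain after ethanol and 9.16 after PBS, with differences of -0.12 in hippocampus and -0.10 in forebrain. Measured against the median of all kept genes, the hippocampus difference of Cux1 was -0.04.

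Met had the largest difference of the 8 and another shape. It read 7.93 in hippocampus after ethanol and 8.85 after PBS, and 8.92 in forebrain after ethanol and 8.90 after PBS. The hippocampus PBS array and both forebrain arrays lay close together, and the hippocampus ethanol array stood apart, 0.92 below the next. The hippocampus difference was -0.92, 1.89-fold lower and the 2nd lowest of 11013 genes, whereas the forebrain difference was 0.02.

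**Figure D1:**
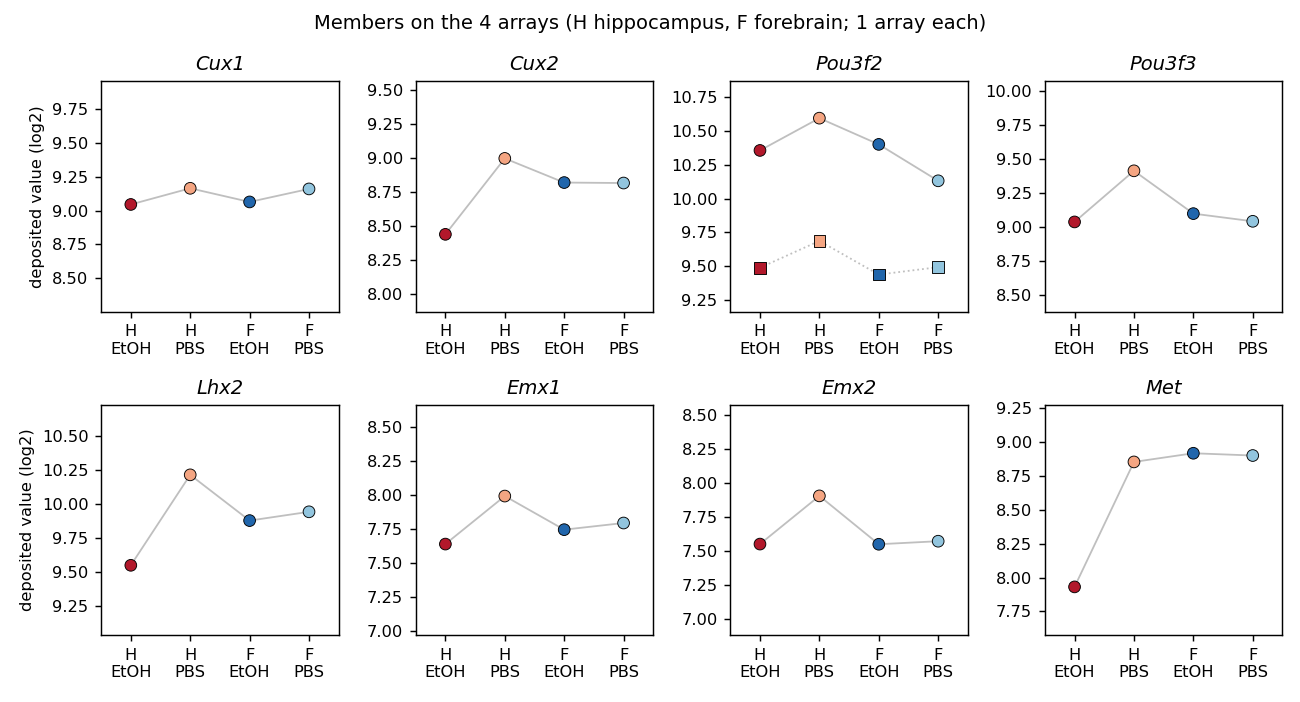
Deposited log2 value (vertical axis, with the same span in each panel) of each gene on the 4 arrays, 1 array a group; the second probe set of Pou3f2 is drawn as squares with a dotted line. The hippocampus PBS array is highest for all genes but Met, whose hippocampus ethanol array reads 7.93 while the others read 8.85 to 8.92.

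In the hippocampus comparison all 8 genes read lower after ethanol, with a median difference of -0.37 beside -0.08 over all kept genes, of which 7632 of 11013 read lower. At 1.5-fold, 2 of the 8 were lower, Met and Lhx2, beside 0.427% of all kept genes, and 0 were higher, beside 0.49%. These shares describe the contrast by which the genes were picked, and nothing is read from them. Lhx2 came to -0.57, short of 1.5-fold, when each array was centred on the median of the kept genes, a setting added after the data were seen, which changed the 54 higher and 47 lower genes to 116 and 19 (88 and 31 after quantile normalization). The sign was negative for all 8 genes in that setting, with Cux1 at -0.02, and also after median centring over all probe sets and after quantile normalization.

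The forebrain comparison shares no array with the hippocampus one. The genes were chosen with earlier results of these data known, so the forebrain values cannot be taken as unseen in that choice. In forebrain 4 of the 8 read higher after ethanol and 4 lower, beside 46.1% and 53.8% of all kept genes. The median of the 8 was -0.01, the same as over all kept genes to 2 decimals. None was 1.5-fold apart in either direction, beside 0.0726% of all kept genes. Apart from the brighter Pou3f2 probe set at 0.27, the differences ran from -0.10 for Cux1 to 0.06 for Pou3f3, against a standard deviation of 0.0941 over all kept genes.

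**Figure D2:**
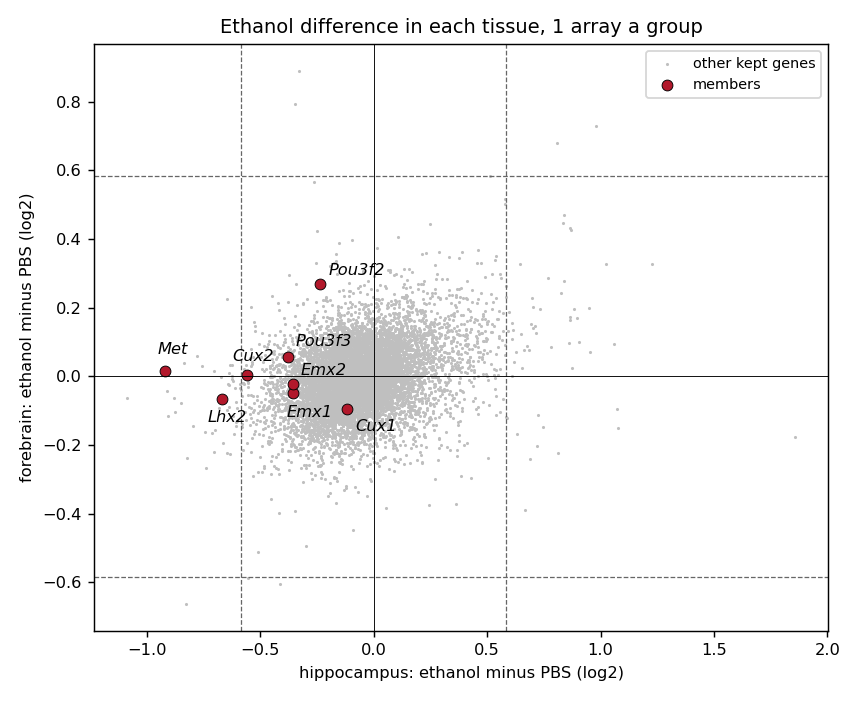
Ethanol minus PBS difference (log2) in hippocampus (horizontal) and forebrain (vertical) for the 8 genes (red) and the other kept genes (grey), 1 array a group; dashed lines mark 1.5-fold. Along the horizontal axis the 8 genes run from -0.92 to -0.12, and along the vertical axis all but Pou3f2 lie within 0.10 of 0.

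The tissue comparison shows how these genes stood in the dissected hippocampus relative to forebrain. After ethanol, 7 of the 8 read lower in hippocampus, as did 69.6% of all kept genes, with Emx2 level at 0.0013. The median of the 8 was -0.08, beside -0.06 over all kept genes. Only 1 gene, Met at -0.98, was at least 1.5-fold lower, beside 0.536% of all kept genes. The split depended on scaling, with 4 lower and 4 higher when arrays were centred on the kept genes, 5 lower and 3 higher after quantile normalization, and 8 lower when arrays were centred on their medians over all probe sets. After PBS, 7 of the 8 read higher in hippocampus, as did 52.4% of all kept genes (medians 0.24 and 0.01). Pou3f3 stood at 0.37, Emx2 at 0.33, Lhx2 at 0.27, Emx1 at 0.20 and Cux2 at 0.18. Pou3f2 stood at 0.46 on its brighter probe set and at 0.19 on the dimmer one, so its place among the 8 depends on the probe set. None was 1.5-fold higher, beside 0.0908% of all kept genes, and the exception was Met at -0.05. Cux1 stood at 0.0047, and 6 of the 8 were higher after quantile normalization or median centring over all probe sets. The PBS tissue difference and the hippocampus ethanol difference share the hippocampus PBS array, so they are not separate evidence.

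**Figure D3:**
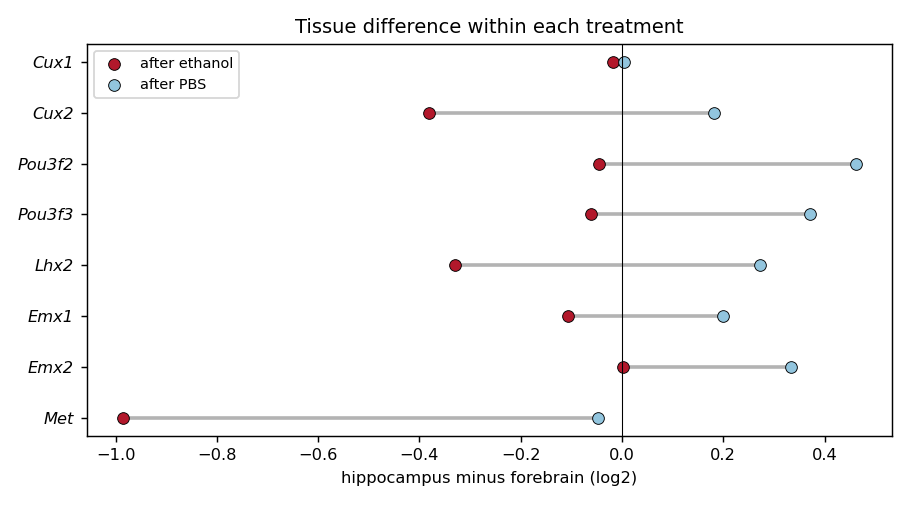
Hippocampus minus forebrain difference (log2, horizontal) for each gene after ethanol (red) and after PBS (blue), 1 array a group, with a grey line joining them. After PBS the values run from -0.05 for Met to 0.46 for the brighter Pou3f2 probe set, and after ethanol from -0.98 for Met to 0.0013 for Emx2.

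Over both treatments limma, with treatment as an additive term and Benjamini-Hochberg adjustment over 11013 genes, called 0 of the 8 genes different between tissues, beside 1.13% of all kept genes (12 higher and 112 lower). The nearest was Met, with a mean of 8.39 in hippocampus and 8.91 in forebrain, a difference of -0.52 (SE 0.187), limma's unadjusted p of 0.0262 and an adjusted p of 0.256. The estimates were 0.21 for Pou3f2 (SE 0.108, limma adjusted p = 0.429), 0.17 for Emx2 (SE 0.102, limma adjusted p = 0.514) and 0.16 for Pou3f3 (SE 0.107, limma adjusted p = 0.564). For Cux2, Lhx2, Cux1 and Emx1 they lay between -0.10 and 0.05. At an unadjusted p of 0.05 the fit gave 1 of the 8 genes and 1666 of 11013. With only 1 residual degree of freedom, a gene's own error is the difference between the tissues' ethanol effects. The hippocampus ethanol difference, known when the genes were picked, enters that error and can widen it. The 0 of 8 and the 1.13% are therefore not a like comparison, and nothing is read from the count. The SE and p-values of limma also draw on the spread of the other genes, so they do not rest on a gene's own error alone. The labels do not tie the arrays to separate litters, so the p-values do not measure the spread between litters.

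The order of the arrays varied within the set. The hippocampus PBS array was the highest of the 4 for 7 of the 8 genes, and for 38.5% of all kept genes, and the hippocampus ethanol array was the lowest for 6 of the 8, and for 50.2% of all kept genes. Both held for 5 genes, Cux1, Cux2, Pou3f3, Lhx2 and Emx1, and for 22.3% of all kept genes. Picking genes with the hippocampus difference known favours this order, so these counts describe the set and nothing is read from them. For Pou3f3 the hippocampus ethanol array was the lowest by only 0.0047 and for Cux1 by 0.02, and for Pou3f2 and Emx2 it was not the lowest. For Cux1 the hippocampus PBS array was the highest by only 0.0047. The hippocampus ethanol array lay over 0.3 below every other array for Met, Cux2 and Lhx2. For Pou3f3, Emx1, Emx2 and the dimmer Pou3f2 probe set the widest gap was that of the hippocampus PBS array above the rest. For the brighter Pou3f2 probe set the forebrain PBS array stood farthest apart, 0.22 below the next, a gap wider than the 0.19 by which the hippocampus PBS array lay above.

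The genes whose profile over the 4 arrays came nearest to the mean profile of the 8, by Euclidean distance between centred log2 values, were Dancr (a long non-coding RNA gene, distance 0.0086), Cdc25b (a phosphatase that activates cyclin-dependent kinases, 0.0233), Sema7a (a membrane-anchored semaphorin, 0.0280), Aldh1l2 (a mitochondrial folate enzyme, 0.0353) and Clstn2 (a calsyntenin of synapses, 0.0361). The median distance of other kept genes was 0.292. Dancr, for instance, read 8.08 in hippocampus after ethanol and 8.53 after PBS, and 8.32 in forebrain after ethanol and 8.30 after PBS. Among the 8 themselves Emx1 (0.0978) and Cux2 (0.120) lay nearest to their mean profile, and Met (0.607) farthest.

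Further genes of cortical neurons and dorsal progenitors read in both directions in hippocampus after ethanol. Over all kept genes 69.3% read lower there, and 0.427% were at least 1.5-fold lower. The counts of lower genes in the lists below are under that 69.3%, and nothing is read from them. Of 17 kept genes from a list of further upper-layer genes, 11 read lower after ethanol in hippocampus and 6 higher (median -0.14), and 2 were at least 1.5-fold lower. These were Mef2c, a transcription factor of maturing neurons, at 10.60 after ethanol and 11.23 after PBS, and the adaptor gene Dok5, at 9.56 after ethanol and 10.19 after PBS. Of 14 deep-layer genes 8 read lower and 6 higher (median -0.20), and 3 were at least 1.5-fold lower. These were the neurotensin receptor gene Ntsr1, at 7.48 after ethanol and 8.38 after PBS, and the transcription factor genes Sox5 and Fezf2. Sox5 read 9.19 after ethanol and 10.04 after PBS, and Fezf2 9.04 after ethanol and 9.69 after PBS. None of the 6 was 1.5-fold higher. Foxp1, among the 6 and named only for this overlap, is also on the list of striatal neuron markers. Of 16 genes of dorsal progenitors 10 read lower and 6 higher (median -0.15), and the proneural gene Neurog2 alone passed 1.5-fold, at 7.92 after ethanol and 8.53 after PBS.

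Lists of molecular partners of the 8 genes had the same median as all kept genes to 2 decimals. Among 15 cofactors and relatives of the LIM and POU factors 9 read lower in hippocampus after ethanol and 6 higher (median -0.08), and none was 1.5-fold apart. Pou3f1, a further POU factor, differed by -0.09 and Pou3f4 by 0.28, both chosen after their values were seen. Of 14 kept genes on a list for HGF-MET signalling 11 read lower and 3 higher (median -0.08), none of them by 1.5-fold. The higher genes include Foxp2 at 0.53 and Sp4 at 0.0013, which encode transcription factors and not parts of the signalling chain. Both were named after their values were seen, and the median without them was not computed. Hgf, which encodes the ligand of Met, did not pass the filter on low values. Grb2, an adaptor that binds the activated receptor, read 9.32 in hippocampus after ethanol and 9.76 after PBS, and 9.93 in forebrain after ethanol and 9.69 after PBS. Hgf and Grb2 were likewise named after their values were seen. In forebrain none of the upper-layer, deep-layer, progenitor, partner or HGF-MET genes was 1.5-fold apart, and the medians of these lists lay between -0.04 and 0.04.

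Among genes of the ventral telencephalon, nearly all subpallial regulators and striatal neuron markers read in the other direction on the same arrays. Markers of GABAergic interneurons were more divided. Of 13 kept subpallial regulators 12 read higher in hippocampus after ethanol and 1 lower (median 0.29), with 1 past 1.5-fold, the retinoic acid receptor gene Rarb at 9.48 after ethanol and 8.76 after PBS. All 12 kept striatal neuron markers read higher. Their summed linear level was 6804 in hippocampus after ethanol and 5089 after PBS, and 4490 in forebrain after ethanol and 4597 after PBS. Rarb, Ebf1, Isl1 and Six3 are in both lists, so the lists are not separate sets. Ebf1, Isl1 and Six3 are named only for this overlap. Of 14 kept GABAergic interneuron markers, some of them also in the subpallial list, 9 read higher and 5 lower (median 0.16), with 2 past 1.5-fold. Markers of other tissues also moved with the arrays. Of 10 kept thalamus markers 8 read higher in hippocampus after ethanol (median 0.32, 3 past 1.5-fold), and all 10 read higher in forebrain after ethanol (median 0.19). Of 10 kept meninges markers 9 read higher in hippocampus after ethanol (median 0.28, 2 past 1.5-fold) and all 10 lower in forebrain (median -0.15). After PBS, 9 of the 10 were at least 1.5-fold lower in hippocampus than in forebrain, beside 131 of all 11013 kept genes. Of 6 kept choroid plexus markers 5 read lower in hippocampus after ethanol and 1 higher (median -0.26), against 5 higher and 1 lower in forebrain (median 0.09). In these bulk samples fewer cells of a type and less RNA per cell cannot be told apart, and the part of tissue composition in the readings of the 8 genes was not tested. Y-linked genes also moved with the arrays: Eif2s3y differed by -0.33 in hippocampus and 0.89 in forebrain after ethanol, and the part of embryo sex was not tested either.

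**Figure D4:**
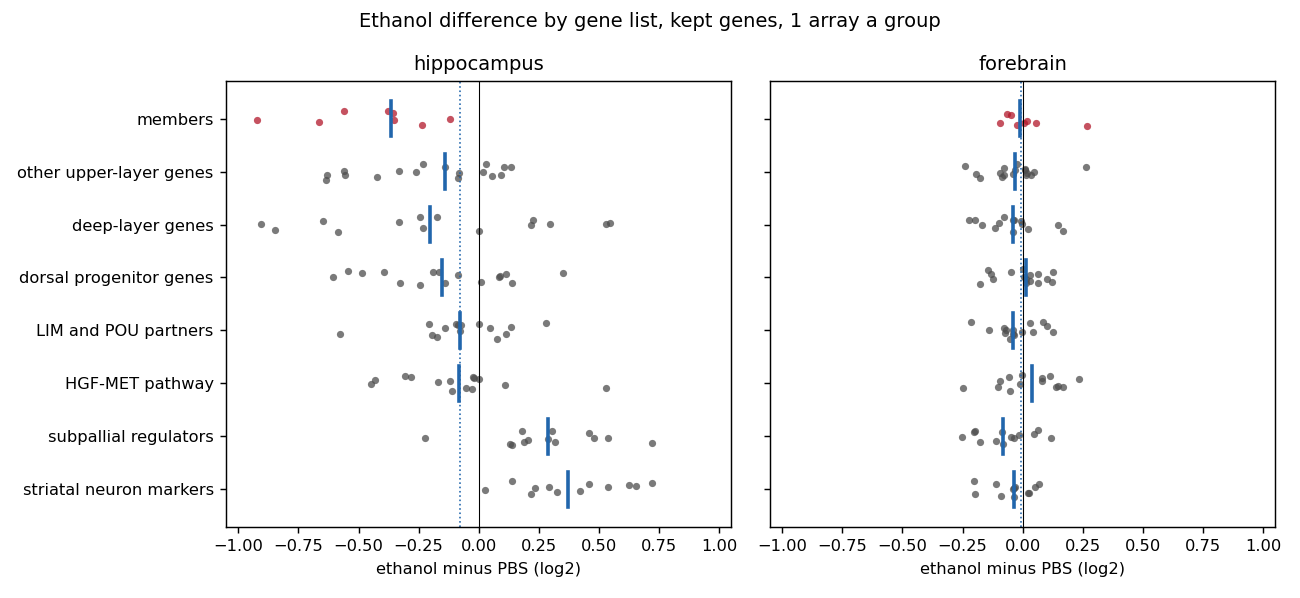
Ethanol minus PBS difference (log2, horizontal) of each kept gene, by list, in hippocampus (left) and forebrain (right), 1 array a group; solid blue bars are list medians and the dotted line is the median of all kept genes. In hippocampus the 8 genes have a median of -0.37 and the subpallial regulators 0.29, and in forebrain the medians are -0.01 and -0.08.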

How the data were processed

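Total RNA was extracted with Trizol and 6 ug was labelled as biotinylated cRNA, per the labels' protocols. The submitters' processing notes name MAS5; neither its version nor any normalization step is stated there. Values are the authors' deposited log2 values, a scale read from their range of 1.58 to 13.96. Read as natural logs, the top value would pass 65535, the limit of a 16-bit scanner. Probe sets were named by the platform annotation (21789 with 1 symbol, 1621 with several and 12147 with none), checked against RefSeq (GRCm38.p6: 21698 matched, 0 symbols changed). The probe set with the highest mean stood for a gene, and a gene was kept if its mean reached 7.11, the median over probe sets.

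Differences within a tissue were counted at 1.5-fold without a test. Tissues were compared with limma 3.58.1 (R 4.3.3), with treatment as an additive term, a variance trend and Benjamini-Hochberg adjustment at 0.05, after a test on simulated data. The rest used Python 3.11.15, numpy 2.4.6, pandas 2.3.3 and matplotlib 3.10.9. Alternatives were 2 kinds of centring, quantile normalization, the mean of probe sets, other filters, 2-fold and no trend. The members and all lists were chosen with earlier results of these data known. Named genes are the 8 members, up to 6 genes a list at 1.5-fold in either tissue and the 5 nearest profiles; any others are marked. Array number limits precision.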

Additional observations from a re-analysis of the deposited data

Results flagged for a closer look

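Met, Cux2, Pou3f2 and Pou3f3, 4 of the 8 genes, differed in opposite directions after ethanol in the tissues, on the single array of each group. They read lower in hippocampus and higher in forebrain, as did 27% of all kept genes. That share is not a like background, since the genes were picked with the hippocampus difference known and all 8 read lower there. Of the 7632 kept genes that read lower in hippocampus, 2971 read higher in forebrain. The hippocampus difference minus the forebrain difference was -0.94 on the log2 scale for Met (-0.92 in hippocampus and 0.02 in forebrain), -0.56 for Cux2 (-0.56 and 0.0035), -0.51 for the brighter Pou3f2 probe set (-0.24 and 0.27) and -0.43 for Pou3f3 (-0.38 and 0.06). Lhx2, lower in both tissues, had a larger difference between them than Cux2, Pou3f2 and Pou3f3, at -0.60 (-0.67 and -0.06). The forebrain values of Met, Cux2 and Pou3f3 are under the standard deviation of 0.0941 over all kept genes, and the dimmer Pou3f2 probe set was lower in both tissues (-0.20 and -0.05). This difference between tissues was not tested, since 1 array a group leaves no error for it.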

How the results depend on the processing

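Each of the 8 genes kept its sign in both ethanol comparisons under every scaling, filter and probe set rule run, and 145 of 146 values of single members moved by less than the standard deviation of all genes' differences or stayed uncalled by limma. The exception was Pou3f2 in forebrain, 0.11 with the mean of its probe sets. The uncalled tissue estimates of Cux1 and Lhx2 changed sign in some settings. Members at least 1.5-fold lower in hippocampus numbered 1 (Met) with arrays centred on the kept genes, an alternative added after seeing the data, and 0 at 2-fold. With a stricter filter, at the 75th percentile, 6 members remained, without Emx1 and Emx2. Counts over all genes moved more. In hippocampus the higher and lower genes at 1.5-fold were 88 and 31 after quantile normalization, 131 and 77 without a filter, 23 and 30 at the stricter filter, 116 and 19 with arrays centred on the kept genes, and 6 and 1 at 2-fold. In forebrain they were 24 and 22 without a filter, 1 and 1 at the stricter filter, 0 and 0 at 2-fold, and 1 was lower with arrays centred on the kept genes. Between tissues limma called 70 higher and 346 lower after quantile normalization, 4 and 33 without a filter, 21 and 45 with arrays centred on the kept genes and 2 and 25 without a trend, 23 higher at the stricter filter, 172 lower after median centring of arrays, and none of the members in any of these (Met's adjusted p ran from 0.109 to 0.348). The cause of these shifts was not tested, beyond the number of genes tested and the threshold. The tissue fit compares tissues within each treatment; no block by replicate could be fitted and no replicate left out, because each group has 1 array.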
